A study of Mus musculus with 3 samples.

Results

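The genes described here are the 30 integrin and syndecan receptor genes, 18 integrin alpha genes, 8 integrin beta genes and 4 syndecan genes. They were chosen by family, by their symbols, and all 30 were found among the 32285 genes of the count tables. Full-thickness dorsal skin of wild-type C57BL/6J mice, labelled female and 8 weeks old, was dissociated into cells whose transcripts were counted in droplets, with 1 library for each of 3 conditions. The study's methods give the 8 weeks for the mice as purchased, and skin was taken after the irradiation period. CON received no irradiation, UV received UVA (0.60 mW/cm2) mixed with UVB (3.5 mW/cm2) on alternate days over 12 weeks, and Rux received the same irradiation, each exposure followed by 1.5% ruxolitinib ointment, an inhibitor of the kinases JAK1 and JAK2. The study describes CON and UV as vehicle groups, and the labels give no number of mice in a library. The comparison of UV with CON addresses what chronic irradiation did to skin, and that of Rux with UV what the inhibitor did on top of it.

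The deposited libraries held 11287 to 13170 cells and 131570327 to 165337289 UMIs, a UMI being the barcode of 1 captured transcript, and 9386 to 10885 cells per library were kept. Between 28 and 50 cell barcodes were shared by any 2 libraries. The libraries went against their label of female mice, since the Y-linked gene Ddx3y stood at 110.4, 115 and 122 CPM in CON, UV and Rux and Xist, the RNA of the inactive X chromosome, at 0.0916, 0.120 and 0.111 CPM. This held for all 3 libraries alike, so no comparison could be given without them. CPM, the depth-scaled count, is the summed UMIs of a gene over the cells of a class, as parts per mega-UMI of that class and library, and sets of 3 values stand in the order CON, UV and Rux. Each condition had 1 library, so no difference has a replicate check and no test was possible. Log2 ratios are given with an exact 95% interval in parentheses, which covers counting error only. Cells were clustered without the 30 genes and named by markers, and 10 classes had at least 50 cells in every library: fibroblast-like (FB), basal keratinocyte-like (KB), hair follicle-like (HF), vascular and lymphatic endothelial-like (VEC, LEC), pericyte-like (PCY), Schwann cell-like (SCH), mast cell-like (MC), myeloid-like (MYE) and lymphocyte-like (LYM).

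Integrins are receptors that span the cell membrane as a pair of an alpha and a beta chain and join the extracellular matrix, or a partner on another cell, to the cytoskeleton. The alpha chain largely sets the ligand: collagens, laminins, the RGD motif of fibronectin and related proteins, or adhesion molecules of leukocytes. Integrins that carry the alpha V chain with beta 6 or beta 8 also release active TGF-beta from its latent complex. Syndecans are membrane proteoglycans whose heparan sulfate chains bind matrix proteins and growth factors, and which act beside integrins in focal adhesions. In skin, alpha 6 beta 4 integrin is the laminin receptor of hemidesmosomes that hold basal keratinocytes to the basement membrane.

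Most of the 30 genes were unevenly spread over the cell classes. The 3' counts depend on how well a transcript's end is captured, so levels are compared within a gene only. Only Itga5, Itgav, Itgb1, Sdc1 and Sdc4 reached a mean of 10 CPM in all 10 classes. At the other end, Itga10 and Itgad did not reach 10 CPM in any, with highest means of 9.88 CPM in PCY-like and 1.93 CPM in LYM-like cells. The leukocyte genes Itgal, Itgam, Itgax and Itgad all lie on chromosome 7 (GRCm38, GENCODE M21), with 11055 bases between Itgam and Itgax and 3718 bases between Itgax and Itgad. Itga2 and Itga1 are neighbours on chromosome 13, 20995 bases apart, yet Itga1 was highest in PCY-like and Itga2 in MC-like cells.

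**Figure D1:**
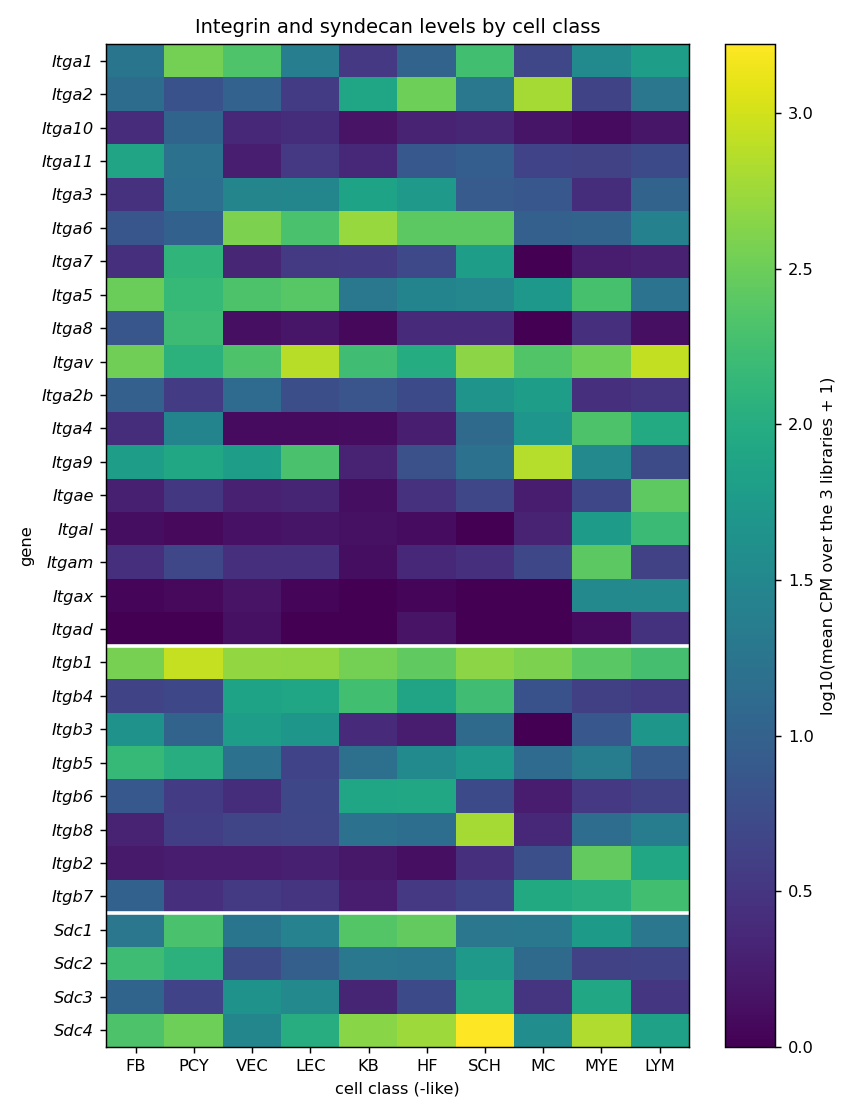
Heat map of the 30 genes (rows, alpha genes above, then beta genes, then syndecans) in 10 cell classes (columns). Colour is log10 of the mean CPM over the 3 libraries plus 1. Itgb1, Itgav and Sdc4 are present in every column, whereas Itgal, Itgax and Itgb2 stand above 10 CPM in the MYE and LYM columns alone, Itgae in the LYM column and Itgam in the MYE column.

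The 4 alpha chains of collagen receptors were highest in 3 classes. Itga1, the alpha chain of a receptor for basement membrane collagen, was highest in PCY-like cells at 305, 373 and 378 CPM, with 211, 235 and 204 CPM in VEC-like cells. Itga2 stood at 481, 548 and 784 CPM in MC-like and 291, 369 and 305 CPM in HF-like cells, against 2.69 CPM on average in LEC-like cells. Itga11, a receptor for fibrillar collagen, was highest in FB-like cells at 49.2, 72.6 and 101 CPM. Itga10, known from cartilage, stood at 3.16, 11.8 and 14.7 CPM in PCY-like cells. All 4 pair with Itgb1, whose highest class of the 10 was PCY-like cells at 834, 843 and 946 CPM and whose lowest was LYM-like cells at 139.6, 192 and 229 CPM.

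The laminin receptors Itga3, Itga6 and Itgb4 had their highest mean in KB-like cells and Itga7 in PCY-like cells. Itga6 had its highest mean in KB-like cells (533 CPM) and also stood at 388 CPM in VEC-like, 259 CPM in HF-like, 257 CPM in SCH-like and 197 CPM in LEC-like cells, with VEC-like cells leading in UV. Its hemidesmosome partner Itgb4 averaged 173 CPM in KB-like and 170.3 CPM in SCH-like cells, and the order of these classes differed between libraries (198, 157 and 164 CPM against 139, 177 and 195 CPM). Itga3 stood at 122, 54.1 and 41.8 CPM in KB-like cells, which led in CON only, HF-like cells leading in UV and Rux. Itga7, the laminin receptor of muscle, stood in PCY-like cells at 117, 119.6 and 141 CPM. In FB-like cells Itga6 averaged 6.35 CPM.

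Among the receptors for RGD-containing proteins, Itga5, the fibronectin receptor, had its highest mean in FB-like cells (187, 245 and 519 CPM), although LEC-like cells (225, 278 and 228 CPM) lay above them in CON and UV, and Itga8 was highest in PCY-like cells at 163, 143 and 171 CPM. Itgav had its highest mean in LYM-like cells, at 687, 865 and 957 CPM, followed by LEC-like cells at 546, 893 and 799.7 CPM, and the order of the 2 classes was the other way in UV. Its beta partners fell into different classes. Itgb3 had its highest mean in VEC-like cells (35.1, 53.6 and 101 CPM), which led in Rux only, LEC-like cells leading in CON and LYM-like cells in UV. Itgb5 was highest in FB-like cells (127, 148 and 155 CPM). Itgb6, which activates TGF-beta in epithelium, stood at 94.6, 89.6 and 61.2 CPM in HF-like and 48.8, 100.04 and 87.5 CPM in KB-like cells, which did not keep their order over the libraries. Itgb8, another activator of TGF-beta, was highest in SCH-like cells at 666, 519 and 659 CPM, and the next class, LYM-like cells, averaged 22.4 CPM. Itga2b, the partner of Itgb3 on platelets, was highest in MC-like cells at 57.2, 45.05 and 81.4 CPM, where Itgb3 had 0 CPM in all 3 libraries. Itga9, a receptor for tenascin-C, also had its highest class in MC-like cells at 698, 759 and 723 CPM, followed by LEC-like cells at 174, 198 and 228 CPM.

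Of the leukocyte integrins, Itgae stood at 237, 288 and 272 CPM, Itgal at 139, 168 and 165 CPM and Itgb7 at 201, 179.8 and 139 CPM in LYM-like cells, their highest of the 10 classes. Itga4 stood at 229, 205 and 188 CPM, Itgam at 214, 199 and 356 CPM and Itgb2 at 275, 263 and 298 CPM in MYE-like cells, again their highest. Itgax, a marker of dendritic cells, reached 32.4, 33.6 and 29.4 CPM in MYE-like and 12.6, 53.3 and 29.4 CPM in LYM-like cells, whose order differed between libraries. In the smaller neutrophil-like class, which had 50, 23 and 224 cells, Itgam stood at 483, 344 and 429 CPM. The common leukocyte chain Itgb2 was at 0.605, 0.463 and 1.06 CPM in FB-like and 0.493, 0.820 and 0.572 CPM in KB-like cells.

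The 4 syndecans also differed in their highest class of the 10. Sdc4, the syndecan of focal adhesions, was highest in SCH-like cells at 1851, 1462 and 1681 CPM, ahead of MYE-like cells at 634, 724 and 722 CPM. Sdc1, the epithelial syndecan, had its highest mean in HF-like cells at 183, 254 and 398 CPM, with 213, 245 and 233 CPM in KB-like and 246, 185 and 163 CPM in PCY-like cells, and PCY-like cells led in CON. Sdc2, the syndecan of mesenchymal cells, was highest in FB-like cells at 131, 161 and 197 CPM. Sdc3, known from nerve, averaged 88.1 CPM in SCH-like and 83.7 CPM in MYE-like cells. CON was the lowest library in SCH-like cells (63.3, 98.4 and 103 CPM) and the highest in MYE-like cells (107, 89.0 and 55.1 CPM).

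In FB-like cells (3294, 4995 and 4958 cells) the alpha V beta 3 pair stood higher after irradiation, and the syndecans differed among themselves. Itgav, Itgb3 and Itga11 were higher in UV than in CON, Sdc1, Sdc3 and Sdc4 were lower, and Itga5 was higher in Rux than in the other libraries. Itgav stood at 217 CPM in CON, 422 CPM in UV and 366 CPM in Rux, so that UV over CON had a log2 ratio of 0.96 (0.91 to 1.00). Its partner Itgb3 stood at 26.7, 49.5 and 57.6 CPM, with a log2 ratio of 0.89 (0.76 to 1.03) for UV over CON and 0.22 (0.14 to 0.30) for Rux over UV. For both genes UV and Rux lay on 1 side and CON on the other. Itga11 was lowest in CON and highest in Rux, at 49.2, 72.6 and 101 CPM, with a log2 ratio of 0.56 (0.46 to 0.66) for UV over CON and 0.47 (0.40 to 0.54) for Rux over UV. Itga5 stood at 187 CPM in CON, 245 CPM in UV and 519 CPM in Rux. The log2 ratio was 0.39 (0.34 to 0.44) for UV over CON and 1.09 (1.05 to 1.12) for Rux over UV, so the larger step lay between UV and Rux. The common partner Itgb1 differed less, at 332, 360.3 and 403 CPM, and Itgb5 stood at 127, 148 and 155 CPM.

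Sdc4, in contrast to the alpha V beta 3 pair, was lowest in UV in FB-like cells. It stood at 221 CPM in CON, 156 CPM in UV and 256 CPM in Rux, with a log2 ratio of -0.50 (-0.56 to -0.45) for UV over CON and 0.72 (0.67 to 0.76) for Rux over UV. Rux was the highest of the 3 libraries. Sdc1 was lower in UV as well, at 20.5, 13.1 and 20.4 CPM, with log2 ratios of -0.65 (-0.83 to -0.46) for UV over CON and 0.64 (0.49 to 0.79) for Rux over UV. Sdc3 stood at 15.8, 6.79 and 7.39 CPM, so that UV and Rux both lay below CON, with -1.21 (-1.45 to -0.98) for UV over CON and 0.12 (-0.11 to 0.35) for Rux over UV. Sdc2 stood at 131, 161 and 197 CPM, with 0.58 (0.53 to 0.64) for Rux over CON. The markers of basal keratinocytes (5 of 5 detected) summed to 242, 105 and 103 CPM in these FB-like cells. They were lower in UV and Rux than in CON. Suprabasal keratinocyte markers summed to 135, 113 and 123 CPM, lowest in UV. Hair follicle markers were more abundant, at 750, 682 and 534 CPM, and lowest in Rux. Sebaceous gland markers, at 371, 393 and 406 CPM, were lowest in CON. The part of these markers in the values of Sdc1 and Sdc4 was not tested.

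**Figure D2:**
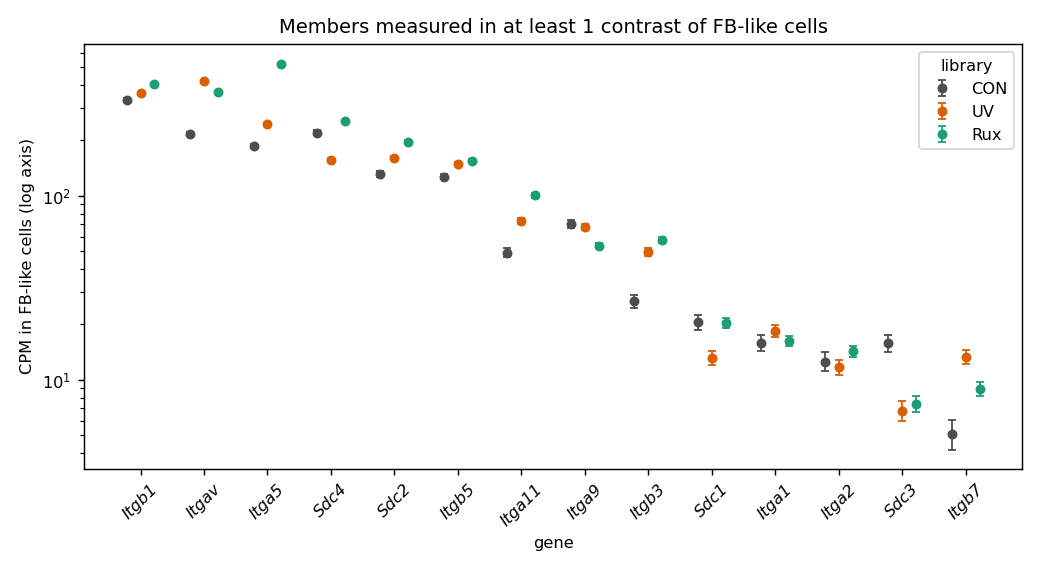
CPM in FB-like cells (log axis) of the 14 genes that reached a mean of 10 CPM in at least 1 pair of libraries, ordered by mean. Points are the 3 libraries and bars exact 95% Poisson intervals. Itga5 stands at 519 CPM in Rux against 245 CPM in UV, while Sdc4 is lowest in UV at 156 CPM.

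A gene was counted past the fold when its log2 ratio was at least 0.5 in either direction at a mean of at least 10 CPM in the 2 libraries. In FB-like cells 13 of the 30 genes reached that level for UV over CON, of which 3 were higher and 3 lower. Over all genes measured, 7.81% were higher and 12.3% lower. The median log2 ratio was 0.22 for the 13 members and -0.11 for all genes. For Rux over UV, 3 of 13 members were higher (Itga5, Sdc1 and Sdc4) against 5.08% of all genes, and 1 was lower (Itgb7) against 6.89%. For Rux over CON, 5 of 13 were higher (Itga5, Itga11, Itgav, Itgb3 and Sdc2) against 8.91%, and 1 was lower (Sdc3) against 13.4%. Rux over CON uses the same libraries as the other comparisons and is not independent of them. UV over CON and Rux over UV share the UV library as well, so an error in it would enter both with opposite signs. With median-of-ratios scaling, which moved the median of all genes in FB-like cells by 0.14 for UV over CON, 4 members were higher and 2 lower in UV, and Sdc4 had a ratio of -0.36.

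FB-like cells came from 9 clusters whose mix differed between libraries. The largest CON cluster was the one led by Myoc and Gpx3 (1475 of 3294), and the largest UV cluster was led by Sntg1 and Cxcl13 (1076 of 4995 cells, against 125 in CON). Within the 8 clusters that had 50 cells in both libraries, Itgav was higher in UV than in CON in 8, with log2 ratios of 0.16 to 1.11. Itgb3 was higher in UV in 7 of 8 clusters, at -0.15 to 1.30, and Itga11 in 5 of 8, at -0.14 to 1.79. Itga5 was higher in Rux than in UV in 9 of 9 clusters, at 0.52 to 1.14, as was Sdc4 in 9 of 9, at 0.14 to 1.21. For UV over CON, Sdc4 ranged from -1.34 to 0.29 and was higher in 1 of 8, and Sdc1 from -0.75 to -0.04 and was higher in 0 of 8. The cluster led by Col3a1 and Postn had the highest Itga5, at 297, 395 and 870.5 CPM. Sdc3 was carried by the cluster led by Col11a1 and Lrrc15, at 117, 72.5 and 45.3 CPM, and by the one led by Coch and Fmod, at 52.6, 48.7 and 60.9 CPM, against 2.53, 2.48 and 1.32 CPM in the cluster led by Myoc. Itgb7, a partner of leukocyte alpha chains, was found mainly in the cluster led by Sntg1 at 74.4, 45.4 and 82.0 CPM, where it was lowest in UV. Over all FB-like cells it was highest in UV (5.05, 13.3 and 8.91 CPM), the library with the largest share of that cluster. With the clusters weighted as in CON, 3 members stayed past the fold for UV over CON: Itgav (0.70), Itgb3 (0.52) and Sdc4 (-0.51). The calls of Itga11 (0.47), Sdc1 (-0.39) and Sdc3 (-0.43) ended, and Itgb7 turned to 0.66 for Rux over UV.

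The promoters of Itgav, Itga5 and Sdc4 are shown because these 3 genes took different orders over the libraries in FB-like cells. Each line holds the 250 bases before the RefSeq start on GRCm38.p6, 5′ to 3′ on the gene's strand, and none overlapped an exon of GENCODE M21. Capitals mark GC boxes, GGGCGG or its reverse complement, the motif bound by Sp1. The positions are chr2:83724147-83724396 (plus strand), chr15:103366792-103367041 (minus strand) and chr2:164443189-164443438 (minus strand). The Sdc4 window lies within the Sdc4 gene of GENCODE M21 (chr2:164424247-164443887) and not upstream of it.
Itgav: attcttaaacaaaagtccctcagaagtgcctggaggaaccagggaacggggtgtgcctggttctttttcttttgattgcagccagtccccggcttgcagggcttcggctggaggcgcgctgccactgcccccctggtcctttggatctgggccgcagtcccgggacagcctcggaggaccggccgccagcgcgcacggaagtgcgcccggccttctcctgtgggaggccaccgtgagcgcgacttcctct
Itga5: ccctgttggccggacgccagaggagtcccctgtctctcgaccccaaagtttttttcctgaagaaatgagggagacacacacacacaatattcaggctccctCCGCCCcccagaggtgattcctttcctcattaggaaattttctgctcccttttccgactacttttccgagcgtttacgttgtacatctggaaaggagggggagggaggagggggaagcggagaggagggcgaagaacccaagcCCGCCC
Sdc4: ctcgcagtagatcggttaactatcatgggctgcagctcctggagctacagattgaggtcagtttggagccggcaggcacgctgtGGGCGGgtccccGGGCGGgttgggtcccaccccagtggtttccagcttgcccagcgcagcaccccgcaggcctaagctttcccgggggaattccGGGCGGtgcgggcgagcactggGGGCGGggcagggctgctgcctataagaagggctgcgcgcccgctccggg

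Sdc4 held 4 GC boxes, Itga5 held 2 and Itgav none. RefSeq promoters were matched for 21 of the 30 genes, with 2 starts each for Itga3 and Itgb6, and 10 of those 23 windows held a GC box, against 32.7% of 32851 promoters. TTCNNNGAA, the spacing bound by STAT factors, was found on either strand for Itga10 only, against 7.02% of all promoters. The AP-1 motif TGANTCA was found for Itgax only, against 6.75%. TATAAA was in none of the 23 windows, against 12.4% of all promoters. These letters show what the window holds and carry no measure of binding. The windows of Itga9, Itgb8 and Sdc4, and a window each of Itga3 and Itgb6, lay within the gene in GENCODE M21.

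Itgav, the alpha V chain, was higher in UV than in CON in each of the 10 classes. The ratio lay above 0 in all 10, which 0.489% of the 4904 genes measured in every class shared. For Rux over CON it was again above 0 in all 10, as for 0.612% of genes, although the sign turned in PCY-like cells when the cell filter was looser (-0.11) or the clustering coarser (-0.11). Of the other members, Itga5, Itgb1 and Sdc4 were measured in every class and did not share the pattern. The ratios of UV over CON ran from 0.15 (-0.14 to 0.45) in SCH-like to 1.58 (1.36 to 1.82) in VEC-like cells. The interval in SCH-like cells spanned 0. In KB-like, PCY-like, SCH-like and LYM-like cells the ratio was within the fold and was not repeated under other filters, clusterings or scalings. In VEC-like cells Itgav stood at 75.1 CPM in CON, 226 CPM in UV and 319.9 CPM in Rux. In LEC-like cells it was 546, 893 and 799.7 CPM, in MYE-like cells 163, 320.0 and 475 CPM, in HF-like cells 71.4, 109 and 112 CPM and in MC-like cells 126, 256 and 274 CPM. UV lay above CON in each, and Rux lay above UV in all but FB-like and LEC-like cells. SCH-like and LYM-like cells, with 0.33 (0.22 to 0.45) in the latter, had the smallest ratios beside PCY-like cells, whose values were 93.2, 122 and 139 CPM.

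**Figure D3:**
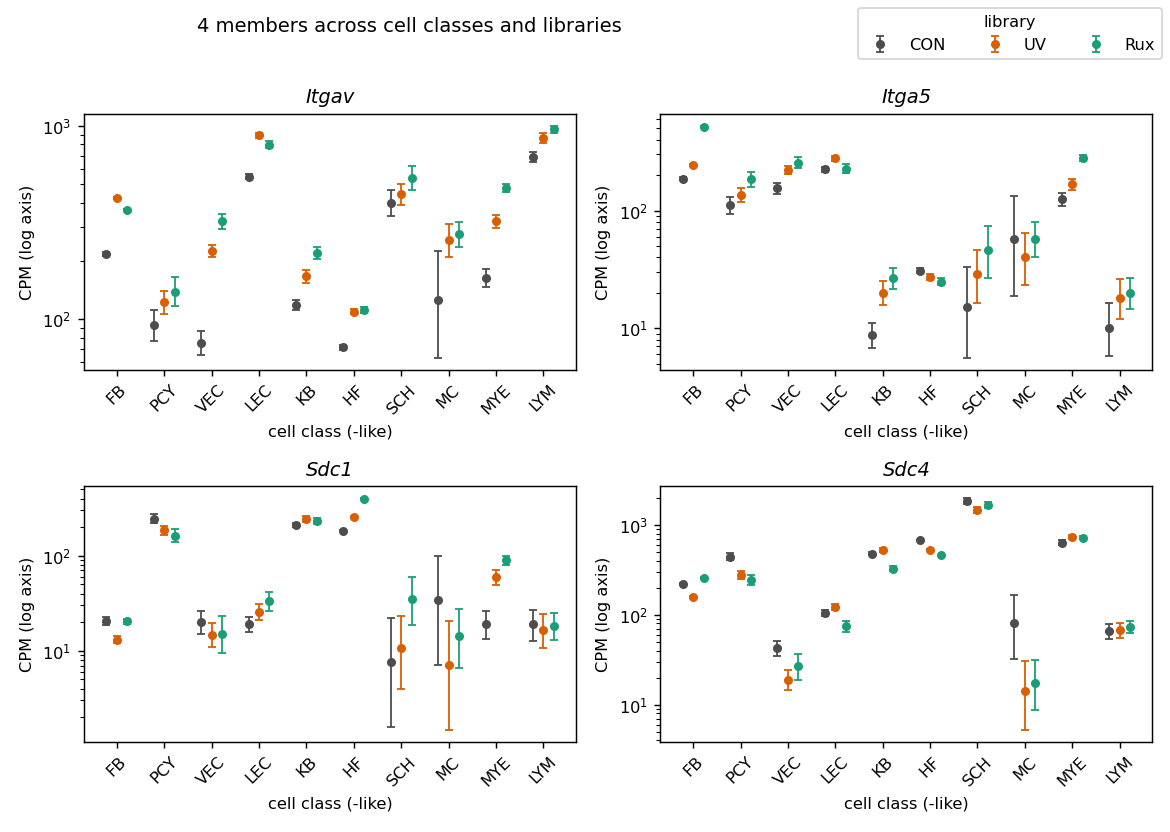
CPM (log axis) of Itgav, Itga5, Sdc1 and Sdc4 in 10 cell classes, with a point per library and exact 95% Poisson intervals. Itgav in CON lies below UV and Rux in every class, whereas the order of libraries for Sdc1 and Sdc4 differs between classes.

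Itga5 did not share this uniform order. It was past the fold and higher in Rux than in CON in FB-like, KB-like, SCH-like (15.2, 28.6 and 45.9 CPM), LYM-like (10.1, 17.98 and 20.1 CPM), MYE-like (125, 168 and 279 CPM), VEC-like (154, 222 and 255 CPM) and PCY-like cells (111, 136 and 184 CPM). SCH-like cells held 394822, 558937 and 369980 UMIs in all, and LYM-like cells 1583340, 1501533 and 2243056. Their CPM of Itga5 therefore rest on few UMIs. Fibroblast markers (7 of 7 detected) summed to 2041, 2140 and 2779 CPM in SCH-like cells, lowest in CON and highest in Rux. In LYM-like cells they summed to 738, 655 and 612 CPM, highest in CON, and their part in Itga5 was not tested. In LEC-like cells Itga5 stood at 225, 278 and 228 CPM and in HF-like cells at 30.9, 27.4 and 24.9 CPM. In MC-like cells it was lower in UV than in CON, at 57.2, 40.3 and 57.4 CPM from 5, 17 and 36 UMIs. Fibroblast markers in MC-like cells summed to 7613, 531 and 806 CPM, highest in CON, and their part in Itga5 was not tested. The log2 ratio of Itga5 for Rux over UV was 0.73 (0.56 to 0.91) in MYE-like cells and -0.14 (-0.27 to -0.00) in HF-like cells.

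In VEC-like cells Itgav, Itgb3 and the laminin receptor chain Itga6 stood higher in UV than in CON. Among VEC-like cells (405, 474 and 180) 7 of 13 members were past the fold for UV over CON, against 18.7% of all genes, and 4 of 14 for Rux over UV, against 17.9%. Itgb3 stood at 35.1, 53.6 and 101 CPM, with a log2 ratio of 0.61 (0.24 to 0.99) for UV over CON and 0.92 (0.59 to 1.24) for Rux over UV. The class held a cluster led by Fabp4 and Flt1 (218, 384 and 127 cells) and one led by Selp and Sele (187, 90 and 53). UV lay above CON in both for Itgav (81.7, 256 and 335 and 68.7, 135 and 295 CPM), Itgb3 (39.7, 51.3 and 122 and 30.5, 60.6 and 67.0 CPM) and Itga6 (416, 531 and 459 and 213, 291 and 247 CPM). Over the class, Itga6 stood at 313, 472 and 379 CPM, highest in UV, with 0.59 (0.47 to 0.72) for UV over CON. Itgb4 was lowest in UV, at 85.9, 56.9 and 75.8 CPM, with a ratio of -0.59 (-0.88 to -0.31). Sdc4 was low throughout, at 42.4, 18.9 and 26.7 CPM, with -1.16 (-1.64 to -0.71), a sign that turned when doublets were kept (0.48). The basal keratinocyte markers in VEC-like cells (5 of 5 detected) summed to 319, 104 and 121 CPM, highest in CON as Sdc4 was. Suprabasal keratinocyte markers were too, at 106, 24.6 and 33.2 CPM. Hair follicle markers at 476, 498 and 503 CPM and sebaceous gland markers at 187, 231 and 222 CPM were not. The part of these markers was not tested. In LEC-like cells (428, 301 and 152) 2 of 12 members were past the fold for UV over CON, against 15.8%, and 2 of 12 for Rux over UV, against 16.8%. Itga3 was 38.3, 22.4 and 27.5 CPM, highest in CON. Keratinocyte markers in LEC-like cells (5 of 5 detected) summed to 254, 75.6 and 82.0 CPM, also highest in CON, and their part was not tested. Itga1 was 18.8, 20.6 and 30.3 CPM and Itgb3 38.0, 48.0 and 61.0 CPM, both highest in Rux. Sdc1 stood at 18.9, 25.6 and 33.1 CPM and Sdc4 at 104, 122 and 74.4 CPM, with a log2 ratio of Rux over UV of -0.72 (-0.97 to -0.47) for Sdc4.

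KB-like cells differed in make-up between the libraries. They came from a basal cluster led by Krt14 and Clca3a2 (485, 24 and 73 cells) and a dividing cluster with histone genes and Top2a (78, 82 and 56 cells), so that most CON cells lay in the basal and most UV cells in the dividing cluster. Over the class, 8 of 13 members were past the fold for UV over CON, against 27.8% of all genes, and 3 of 13 for Rux over UV, against 14.1%. Members are therefore given for the class and then within each cluster. Other filters, doublets kept and a coarser clustering put largely different cells in this class. Of its 798 cells, 165 stayed in it with the stricter filter and 197 with the looser one. With doublets kept 194 stayed, and with the coarser clustering 221. Some of the class ratios turned, and these are given with the genes or in the closing section.

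Itga3, a laminin receptor chain outside hemidesmosomes, was lower after irradiation in both clusters. It stood at 122, 54.1 and 41.8 CPM in the class, at 131, 55.2 and 48.5 CPM in the basal and 79.0, 53.9 and 36.8 CPM in the dividing cluster, with ratios for UV over CON of -1.23 (-1.77 to -0.77) and -0.55 (-0.90 to -0.20). For Rux over CON the class ratio of Itga3 turned to 0.32 with the stricter filter and 0.21 with doublets kept. Itga6 stood at 723, 406 and 472 CPM in the class. It was lower in UV than in CON in the basal cluster, at 801, 509 and 529 CPM, with a ratio of -0.65 (-0.82 to -0.49). In the dividing cluster it was 380.5, 383 and 431 CPM, with a ratio of 0.01 (-0.14 to 0.16), and the class ratio was 0.03 with the stricter filter, 0.26 with the looser one and 0.36 with the coarser clustering. Itgb4 was 216, 144 and 186 CPM in the basal cluster, with -0.58 (-0.90 to -0.28), and 119.5, 159.7 and 147 CPM in the dividing cluster, with 0.42 (0.17 to 0.67). Thus the pair of hemidesmosome chains lay lower in UV than in CON in the basal and not in the dividing cluster, and the difference between clusters was not tested.

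Itgav was higher after irradiation in both clusters, at 118, 166 and 220.2 CPM in the class, 115, 138 and 202 CPM in the basal and 132, 172 and 234 CPM in the dividing cluster. Rux over UV was 0.55 (0.21 to 0.91) and 0.44 (0.26 to 0.62). Itga5 was low but followed the same order, at 8.76, 19.95 and 26.6 CPM in the class, from 61, 11 and 33 UMIs in the basal and 10, 62 and 60 UMIs in the dividing cluster. Itgb5 stood at 9.004, 18.9 and 15.4 CPM in the class, lowest in CON in both clusters, but its class ratio of UV over CON turned to -0.53 with the coarser clustering. Itgb6 was 48.8, 100.04 and 87.5 CPM in the class and 57.8, 109 and 108 CPM in the dividing cluster, a ratio of UV over CON of 0.91 (0.57 to 1.28), against 0.33 (-0.21 to 0.81) in the basal cluster. With doublets kept, Itgb6 in the class had -0.16 for Rux over CON.

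Sdc4 was lower in Rux than in the other libraries in KB-like cells. It stood at 479.9, 525 and 327 CPM in the class, with log2 ratios of Rux over UV of -0.66 (-0.86 to -0.45) in the basal and -0.69 (-0.82 to -0.56) in the dividing cluster. With the stricter cell filter the class ratio was 0.17, and with doublets kept 0.16. In FB-like cells Rux was the highest library instead. Sdc1 stood at 213, 245 and 233 CPM and Sdc2 at 16.4, 23.5 and 14.9 CPM in the class, and the ratio of Rux over UV for Sdc2 turned to 0.30 with the stricter filter and 0.27 with doublets kept. Itgb8 stood at 7.52, 30.3 and 8.87 CPM, but in the dividing cluster CON and UV were alike, at 32.5, 32.6 and 15.4 CPM. In the basal cluster it stood at 1.82, 19.9 and 0 CPM, from 12, 13 and 0 UMIs in 485, 24 and 73 cells, with 3.45 (2.21 to 4.72) for UV over CON, and the 0 in Rux allows up to 3 UMIs. With the coarser clustering the class ratio of UV over CON was -0.24. Itga2 was 62.9, 99.8 and 77.8 CPM in the class, and its ratio of UV over CON was 1.09 (0.74 to 1.47) in the dividing and -0.39 (-0.98 to 0.10) in the basal cluster, and -0.76 in the class with doublets kept. For both genes the class ratio differed from that of at least 1 of its clusters.

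**Figure D4:**
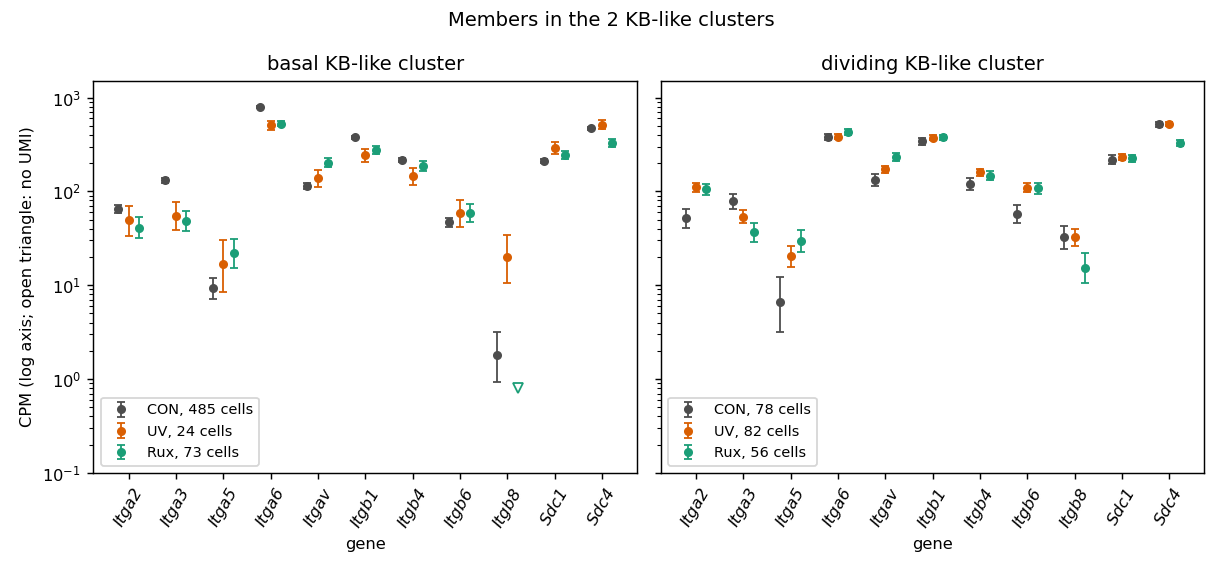
CPM (log axis) of 11 members in the basal and the dividing KB-like cluster, with a point per library, exact 95% Poisson intervals and an open triangle for 0 UMIs. Itga3 is highest in CON and Sdc4 lowest in Rux in both panels, and Itga6 is highest in CON in the basal cluster only.

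In HF-like cells (2343, 1519 and 1113), the largest epithelial class, 3 of 14 members were past the fold for UV over CON, against 13.5% of all genes, and 3 of 13 for Rux over UV, against 6.08%. Sdc1 was lowest in CON and highest in Rux, at 183 CPM in CON, 254 CPM in UV and 398 CPM in Rux, with ratios of 0.47 (0.44 to 0.51) and 0.65 (0.61 to 0.68). Sdc4 had the opposite order, at 679, 528 and 460.0 CPM, with -0.56 (-0.59 to -0.53) for Rux over CON. Itgb6 was lowest in Rux, with -0.55 (-0.63 to -0.47) for Rux over UV. Itgb5 was highest there, at 29.0, 28.3 and 43.9 CPM, with 0.63 (0.52 to 0.75). Itga6 stood at 297, 270.2 and 209.9 CPM, a ratio of -0.50 (-0.54 to -0.46) for Rux over CON. Itgb8 stood at 19.5, 10.8 and 10.0 CPM and Itga1 at 13.8, 9.32 and 5.99 CPM, both highest in CON.

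HF-like cells came from 7 clusters whose mix differed between libraries. The cluster led by Krt15 and Lhx2 held 629, 188 and 98 cells, the one led by Krt71 and Krt25 with Krt75 53, 152 and 169, and the one led by Krt6a and Pthlh 64, 97 and 182. The Krt15 and Krt6a clusters were named by their leading genes. Their scores were higher on basal keratinocyte markers (3.436 and 3.525) than on hair follicle markers (1.028 and 1.301). The same held for the clusters led by Hist1h1b (1.638 against 1.136) and Itga2 (1.842 against 1.179). Sdc1 was highest in Rux in 7 of the 7 clusters, at 587, 1258 and 1345 CPM in the Krt6a cluster and 182, 191 and 409 CPM in the Krt15 cluster. Itgb5 was highest in Rux in 7 of 7 too, and Itgb6 was lower in Rux than in UV in 6 of 7. Sdc4 was lower in Rux than in CON in 5 of 7, at 968, 849 and 439 CPM in the Krt6a cluster and 351, 351 and 353 CPM in the Krt71 and Krt75 cluster. Itga6 went the other way in the Krt15 cluster, at 259, 419.5 and 571 CPM, and was lower in Rux than in CON in 5 of 7. Itgb8 at 52.3, 51.6 and 67.8 CPM and Itga1 at 35.8, 41.8 and 41.3 CPM were not highest in CON within the Krt15 cluster. For Itga1 that cluster held the highest levels, and its share of HF-like cells was larger in CON than in UV or Rux.

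In PCY-like cells (212, 245 and 118) the mural integrins Itga1, Itga7 and Itga8 stayed within the fold. Here 5 of 15 members were past it for UV over CON, against 27.3% of all genes, and 4 of 17 for Rux over UV, against 25.2%. Itgb5 was lowest in CON and highest in Rux, at 61.6 CPM in CON, 98.5 CPM in UV and 146 CPM in Rux, with ratios of 0.67 (0.28 to 1.09) and 0.57 (0.23 to 0.91). Itga9 was lowest in Rux, at 109, 89.2 and 49.4 CPM, with -0.84 (-1.36 to -0.37) for Rux over UV. Sdc4 stood at 443, 278 and 243 CPM and Sdc1 at 246, 185 and 163 CPM, both highest in CON, with -0.67 (-0.86 to -0.49) for Sdc4 in UV over CON. Other clusterings added cells led by Wif1 to this class and turned that sign (1.10 with the coarser clustering). Keratinocyte markers (5 of 5 detected) summed to 255, 108 and 119.8 CPM in PCY-like cells, highest in CON, and their part was not tested.

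SCH-like and MC-like cells were few and had the largest shares of all genes past the fold. In SCH-like cells (144, 182 and 104) 5 of 16 members were past the fold for UV over CON, against 38.9%, and 9 of 19 for Rux over UV, against 37.9%. Itga1 was highest in UV, at 149, 267 and 116 CPM from 59, 149 and 43 UMIs, and Itga6 at 258, 306 and 208 CPM from 102, 171 and 77 UMIs. The high levels of Itgb8, Sdc4 and Sdc3 in this class moved by less than the fold for Rux over UV. In MC-like cells (63, 169 and 207) 7 of 13 members were past the fold for UV over CON, against 59.8% of all genes, and 4 of 10 for Rux over UV, against 32.5%. Fibroblast markers (7 of 7 detected) summed to 7613, 531 and 806 CPM in MC-like cells, highest in CON. Sdc4 (80.1, 14.2 and 17.6 CPM) and Itgb5 (34.3, 2.37 and 0 CPM) were highest there too, and the part of the fibroblast markers was not tested. MC-like cells held 87353, 421762 and 626648 UMIs in all, so these CPM of Sdc4 and Itgb5 rest on few UMIs. The leading members Itga9 and Itga2 moved by less than the fold for UV over CON, and Itga2 stood at 0.51 (0.29 to 0.75) for Rux over UV.

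In MYE-like cells (275, 251 and 449) Itgam, Itgav and Itga5 were higher in Rux than in UV, and Itgal and Sdc3 were lower. Here 3 of 15 members were past the fold for UV over CON, against 24.2% of all genes, and 8 of 16 for Rux over UV, against 24.1%. Itgam, the alpha chain of complement receptor 3, stood at 214 CPM in CON, 199 CPM in UV and 356 CPM in Rux, with a ratio of 0.84 (0.68 to 1.00) for Rux over UV. Its level was 477 CPM in a subcluster led by Chil3 and Thbs1 that held 18, 25 and 116 cells, and 264 CPM in the macrophage-like one led by Retnla and Lyz1. Itgb2, its partner, stayed within the fold. Itgal was lowest in Rux at 80.3, 55.9 and 38.3 CPM, with -0.55 (-0.90 to -0.18) for Rux over UV. Sdc3 was lowest there too, with -0.69 (-0.98 to -0.40). Itgb5 (19.6, 16.5 and 30.9 CPM) and Itgb8 (5.66, 6.81 and 26.7 CPM) were low and highest in Rux. Itgb8 rested on 11, 14 and 108 UMIs.

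Sdc1 in MYE-like cells was 19.1, 59.3 and 89.5 CPM, with 1.63 (1.10 to 2.21) for UV over CON and 0.59 (0.29 to 0.90) for Rux over UV. Its highest level, 399 CPM over all libraries, lay in a subcluster led by Spp1, Mmp13 and Arg1, which had 0, 18 and 65 cells. The next, at 132 CPM, was a subcluster of 20 cells (8, 11 and 1) led by immunoglobulin genes, whose part was not tested. Without the subcluster led by Spp1 the ratio of Sdc1 was 1.31 for UV over CON and -0.77 for Rux over UV. The same subcluster had 791 CPM of Itgav, and Itgav without it had a ratio of 1.41 for Rux over CON. Itgal was concentrated in a subcluster led by Treml4 and Adgre4, at 773 CPM, where Itga4 stood at 698 CPM. That subcluster held 17, 9 and 9 cells, its largest share of MYE-like cells in CON. The highest Itga4 lay in a subcluster of 16 cells led by Il12b and Fscn1, at 1397 CPM. Sdc4 was highest in the macrophage-like subcluster led by Ccl8 and Retnla, at 1538 CPM, which held 84, 31 and 17 cells and had 208 CPM of Sdc3.

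In LYM-like cells (254, 238 and 353) Itga4, Itgax, Itga1, Itgb2 and Itgb3 were higher in UV than in CON. Here 7 of 16 members were past the fold for UV over CON, against 29.4% of all genes, and 2 of 17 for Rux over UV, against 15.7%. Itga4, a receptor chain for vascular adhesion molecules and fibronectin, stood at 28.4 CPM in CON, 114 CPM in UV and 135 CPM in Rux, a ratio of 1.99 (1.52 to 2.51) for UV over CON. Itgax stood at 12.6, 53.3 and 29.4 CPM, Itga1 at 37.9, 73.9 and 74.9 CPM and Itgb3 at 29.1, 61.9 and 60.2 CPM, each lowest in CON. Itgb2, the common leukocyte chain, was also lowest in CON at 61.3, 96.6 and 98.1 CPM, whereas Itgb7 was highest there. A gamma-delta T cell-like subcluster led by Zmat4 and Kcnma1 held 91, 4 and 1 cells, and in it Itga4 was 12.3 CPM and Itgb3 7.02 CPM. Without it the ratio of UV over CON was 1.64 for Itga4, 1.53 for Itgax, 0.45 for Itga1, 0.62 for Itgb3 and 0.32 for Itgb2.

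The lymphocyte subclusters differed in single integrins. Itgb8 reached 284 CPM in the subcluster with Foxp3 and Ctla4, which mark regulatory T cells, and at most 19.3 CPM in the other LYM-like subclusters. Itgav was highest in the subcluster led by Il5 and Pde7b, at 2174 CPM, followed by the one with Foxp3 at 1645 CPM. Itgae, which binds E-cadherin on epithelium, was highest in a subcluster led by Gzmc, at 549 CPM, and had 0 UMIs in the one led by Gzma and Ccl5, a count that allows up to 3, where Itga4 stood at 909.6 CPM. That subcluster had 24 cells.

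**Figure D5:**
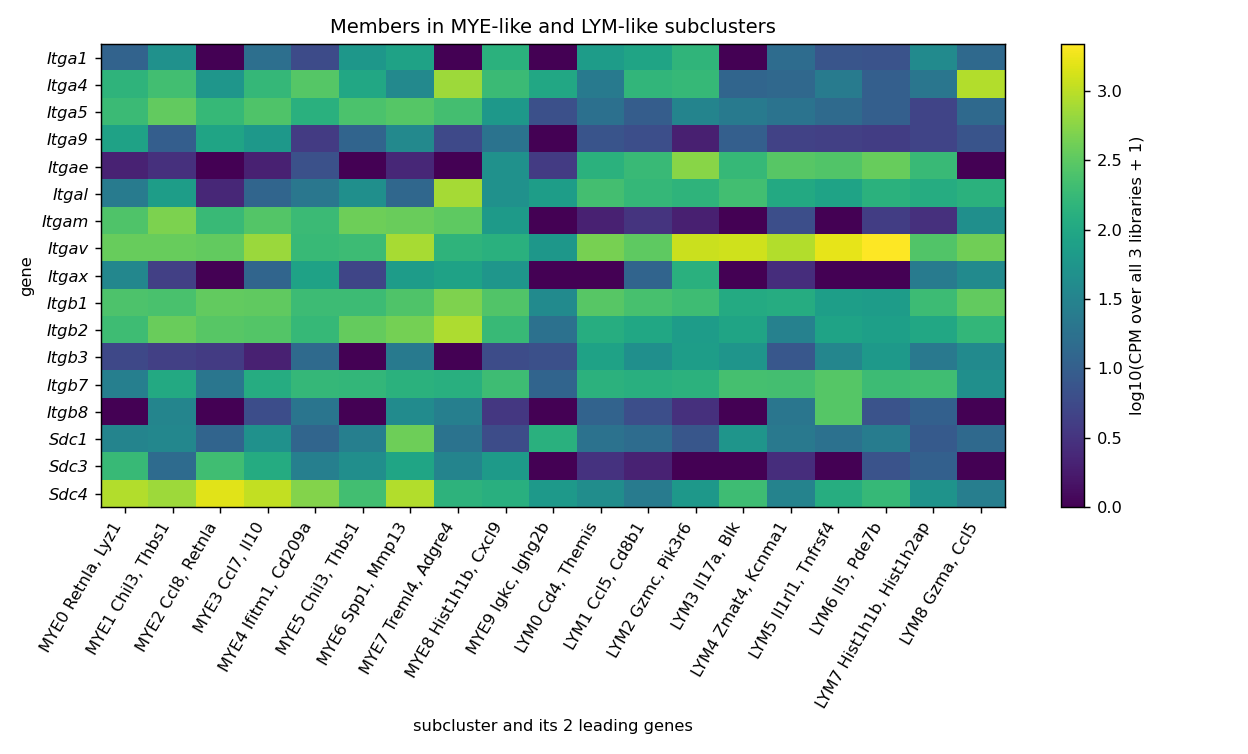
Heat map of 17 members (rows) in the MYE-like and LYM-like subclusters of at least 20 cells (columns, each with its 2 leading genes). Colour is log10 of the CPM over all 3 libraries plus 1. Sdc1 is brightest in the column led by Spp1, Itgb8 in the column led by Il1rl1, which also holds Foxp3, and Itgal in the column led by Treml4.

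The partners of these receptors were followed in 5 lists of adhesion genes. Among matrix ligands, 8 of 23 measured genes were higher and 2 lower in UV than in CON in FB-like cells, against 7.81% and 12.3% of all genes, with a median log2 ratio of 0.33, against -0.11 for all genes. Ltbp1, which binds latent TGF-beta, stood at 182, 380.2 and 307 CPM, with 1.06 (1.01 to 1.11) for UV over CON. Postn, a ligand of alpha V integrins, stood at 177, 333 and 910.1 CPM and Tnc, a ligand of alpha 9, at 87.6, 147 and 244 CPM. Both were lowest in CON and highest in Rux, with 1.45 (1.42 to 1.48) for Postn in Rux over UV. The FB-like cluster led by Col3a1 and Postn held 128, 565 and 958 cells. Single genes of the lists were not followed within clusters, and the part of the cluster mix in their values was not tested. Tgfb1 stood at 45.6, 40.4 and 81.2 CPM, highest in Rux.

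Of the counter-receptors on cell surfaces, 0 of 9 were higher and 5 lower in UV than in CON, with a median of -0.50. Over all genes in FB-like cells, 7.81% were higher and 12.3% lower in this comparison, with a median of -0.11. Of the adaptors and kinases of integrin adhesions, 1 of 22 was higher and 0 lower in UV. In Rux over UV, 5 of 23 were higher, against 5.08% of all genes. Apbb1ip, an adaptor that helps talin reach integrins, stood at 103, 103 and 223 CPM, with 1.11 (1.05 to 1.16) for Rux over UV. In the list of syndecan synthesis and binding, 3 of 14 were higher and 3 lower in UV. Xylt1, which starts the glycosaminoglycan chains, stood at 68.1, 195 and 179.8 CPM, with 1.52 (1.44 to 1.60) for UV over CON. Of the hemidesmosome and tetraspanin partners, 1 of 6 was higher and 2 lower. Over the 5 lists 13 genes were higher and 12 lower of 74. Median-of-ratios scaling made this 18 and 6, and clusters weighted as in CON made it 9 higher and 3 lower of 75. The shares of all genes were not computed under these settings.

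In KB-like cells 4 of 8 hemidesmosome and tetraspanin partners were lower and 1 higher in UV than in CON, with a median of -0.42, against 0.07 for all genes. Over all genes 9.68% were lower and 18.1% higher. Actn1, which links actin to adhesions, stood at 28.6, 81.5 and 71.8 CPM, lowest in CON. Postn was 113, 267 and 211 CPM. The basal and dividing clusters made up different shares of these KB-like sums in each library, as above.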

How the data were processed

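Dorsal skin of CON, UV and Rux mice was profiled with 10x Genomics 3' v3.1 chemistry (Chromium Next GEM), 1 library per condition. The authors deposited, per library, a filtered matrix of whole-number UMI counts per gene and cell, not normalized, made with Cell Ranger on mm10. The submitters' notes and the study's methods name Cell Ranger 6.1.2, whereas the matrix headers name 7.0.0, and whether intronic reads were counted is not given in the sources used here. Deposited depth was 131570327 to 165337289 UMIs per library, with median cell depths of 6941 to 8715 UMIs.

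Cells were kept from 200 genes upwards and up to a mitochondrial share of 10% (500 and 5% in the stricter filter, 20% in the looser). The cells with the highest Scrublet scores (scanpy 1.11.5), in a share that grew with the number of cells, were removed as doublets (1161, 1032 and 836 cells). The others were clustered in Seurat 5.3.0 (R 4.3.3; 30 principal components, resolution 1.5) without the 30 genes, 5 of which were among the 2000 most variable. The 44 clusters were named from fixed marker lists, and those whose markers did not decide a name were left unnamed (2044, 1550 and 1140 cells), among them 1 of low UMI content with fibroblast markers and 1 led by Wif1. Lists were scored by their mean log2 level above the average of the clusters. Among epithelial lists, the one with most genes among a cluster's 10 leading genes gave the name. Most of the 4975 HF-like cells therefore lay in clusters that scored higher on the basal keratinocyte list. These were led by Hist1h1b (1454 cells), Itga2 (1136), Krt15 (915) and Krt6a (343). Counts were summed per class and library with Python 3.11.15 (numpy 2.4.6, scipy 1.17.1, pandas 2.3.3, matplotlib 3.10.9).

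With 1 library per condition no test across samples was possible, and none was replaced by a test over cells. CPM carry exact Poisson intervals and log2 ratios, with 0.5 UMI added to each sum, exact conditional 95% intervals. UMIs count molecules, so intervals cover counting error only. A gene was measured in a comparison at a mean of 10 CPM and past the fold at a log2 ratio of 0.5 in either direction. The script was tested on simulated data.

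All 30 genes were accounted for. Levels in the 3 libraries were given for a gene's highest class and wherever it was past the fold with at least 100 UMIs, and genes of the adhesion lists were named at a log2 ratio past 1 with at least 50 CPM and 100 UMIs in FB-like or KB-like cells, up to 4 a list. Of the genes that met this rule, 1 is not reported here. The members and the 5 adhesion lists were chosen with earlier results of these data known. Alternatives were other cell filters, doublets kept, a coarser clustering at a resolution of 0.8, members kept among the variable genes, other scalings, equal weight per cell, cluster weights as in CON, and other thresholds. Alternatives chosen after seeing the data were the low-UMI cluster counted as FB-like, each KB-like cluster alone, and MYE-like or LYM-like cells without 1 subcluster. Promoter windows came from RefSeq on GRCm38.p6 and gene positions from GENCODE M21.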

Additional observations from a re-analysis of the deposited data

Results flagged for a closer look

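The 10 contrasts below had opposite directions in 2 cell classes, both past the fold with at least 100 UMIs. For each gene and comparison the classes with the highest and the lowest such ratio were taken, so the gaps are the largest by choice. The share of all genes that split this way was not computed. Each value is the gap between the 2 log2 ratios, and because each condition had 1 library, the difference was not tested in any of them. For UV over CON, Itga1 was 1.52 higher in LYM-like than in HF-like cells, and Itga6 was 1.42 higher in VEC-like than in KB-like cells. In the same comparison Itgb8 was 2.86 higher in KB-like than in HF-like cells, and Sdc1 was 2.27 higher in MYE-like than in FB-like cells. For Rux over UV, Itga1 was 1.74 higher in LEC-like than in SCH-like cells, Itgb8 was 3.69 higher in MYE-like than in KB-like cells, and Sdc4 was 1.43 higher in FB-like than in LEC-like cells. For Rux over CON, Itgb6 was 1.47 higher in KB-like than in HF-like cells. There, Itgb8 was 3.14 higher in MYE-like than in HF-like cells, and Sdc1 was 2.80 higher in MYE-like than in PCY-like cells. Those that rest on KB-like cells change with the mix of its basal and dividing clusters, and Itgb8 in KB-like cells rested on few UMIs in CON and Rux. Itga1 in LYM-like cells fell within the fold without the subcluster led by Zmat4. Sdc1 in PCY-like cells changed sign with the looser filter, with doublets kept and with the coarser clustering.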

How the results depend on the processing

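No paired analysis was possible because each condition had 1 library, and for the same reason no replicate could be left out. Over 116 named ratios, 988 of 1027 values under the alternatives kept their direction. These ratios were picked for being past the fold with at least 100 UMIs, so a kept direction alone says little. Leaving out the alternatives chosen after seeing the data, 838 of 944 values stayed past the fold. The number of members past the fold in FB-like cells was 6 for UV over CON, 4 for Rux over UV and 6 for Rux over CON. For UV over CON it was 3 with every cell weighted equally and 3 with clusters weighted as in CON, which also took the adhesion genes from 25 to 12. With other cell filters, doublets kept, the coarser clustering or members among the variable genes, it was 5 for UV over CON, with 2 lower. Under these settings it was 5 for Rux over CON, with 0 lower, so the lower call of Sdc3 in that comparison ended. Requiring 20 UMIs in place of 10 CPM gave 15 of 27, 12 of 28 and 15 of 28 members measured in these comparisons. A fold of 1 on the log2 scale gave 1 for UV over CON, 1 for Rux over UV and 4 adhesion genes. The share of all genes past the fold was not computed under these alternatives, so these counts have no background beside them.

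Reversed values were mostly in KB-like and PCY-like cells, whose cells differed between clusterings. With the stricter cell filter, KB-like log2 ratios were 0.025 (Itga6, UV over CON), 0.30 and 0.17 (Sdc2 and Sdc4, Rux over UV), and 0.32, 0.33 and 0.30 (Itga3, Itga6 and Sdc4, Rux over CON). With the looser filter, Itga6 in KB-like cells was 0.26 for UV over CON. In PCY-like cells Sdc4 was 1.08 for UV over CON, and Itgav, Sdc1 and Sdc4 were -0.11, 0.091 and 1.20 for Rux over CON. With doublets kept, KB-like values were -0.76 (Itga2, UV over CON), 0.27 and 0.16 (Sdc2 and Sdc4, Rux over UV), and 0.21, 0.21, -0.16 and 0.19 (Itga3, Itga6, Itgb6 and Sdc4, Rux over CON). Sdc4 in VEC-like cells was then 0.48 for UV over CON and -0.69 for Rux over UV, and in PCY-like cells Sdc4 was 0.76 for UV over CON and Sdc1 and Sdc4 were 0.38 and 0.83 for Rux over CON. At a resolution of 0.8, KB-like values were 0.36, -0.53 and -0.24 (Itga6, Itgb5 and Itgb8, UV over CON) and 0.22 and -0.20 (Itga6 and Itgb5, Rux over CON). PCY-like Sdc4 was 1.10 for UV over CON, and Itgav, Sdc1 and Sdc4 were -0.11, 0.12 and 1.21 for Rux over CON.

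With FB-like clusters weighted as in CON, Itgb7 was 0.66 for Rux over UV. In the dividing KB-like cluster alone, Itga6 and Itgb8 were 0.0096 and -0.0047 for UV over CON, and Itga6 was 0.18 for Rux over CON. In the other KB-like cluster, Itga2 and Sdc2 were -0.39 and -0.078 for UV over CON. Without the subcluster led by Spp1, Sdc1 in MYE-like cells was -0.77 for Rux over UV. Beyond the cluster and subcluster settings, the cause was not tested. Small classes limit what the counts can show: CON held 63 MC-like cells, and UV 106 KB-like cells.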
